A study of Mus musculus with 6 samples.

Results

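The genes examined here belong to antigen presentation and to the immunoproteasome, the form of the proteasome that cuts peptides for presentation. The 10 members were taken by gene symbol and are *H2-K1*, *H2-D1*, *B2m*, *Tap1*, *Tap2*, *Tapbp*, *Psmb8*, *Psmb9*, *Psmb10* and *Cd74*. Each was found once among the 17092 genes of the table. RNA-seq was carried out on MEFs, fibroblasts that are taken from mouse embryos and kept in culture, from WT mice and from *Aff3ir-ORF2-/-* mice, with 3 libraries of each genotype. The *Aff3ir-ORF2-/-* mice are a global knockout of the ORF2 variant of *Aff3ir*, a gene nested in *Aff3*, made by injecting Cas9 mRNA and guide RNAs into fertilised eggs. No treatment is given for either group, the stage of the embryos is not stated, and nothing says that the libraries of a genotype came from separate embryos or cultures, so the p-values measure only the spread between these libraries.

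Cells display fragments of their own proteins on MHC class I molecules, which consist of a heavy chain (*H2-K1* and *H2-D1* in the mouse) and the light chain β2-microglobulin (*B2m*). The proteasome cuts proteins into peptides, the transporter made of *Tap1* and *Tap2* carries these into the endoplasmic reticulum, and tapasin (*Tapbp*) holds the empty class I molecule at the transporter until a peptide is bound. Interferon-γ is known to replace the catalytic subunits of the standard proteasome with those encoded by *Psmb8*, *Psmb9* and *Psmb10*. Class II molecules instead present material taken up from outside, mainly in macrophages, dendritic cells and B cells, and are escorted by the invariant chain *Cd74*.

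Total counts were 17435133 to 17726034 in WT and 18209421 to 18252330 in *Aff3ir-ORF2-/-* libraries. Values are given as CPM, counts scaled to a common library size after TMM normalisation, and 3 counts, taken as the detection floor, came to between 0.161 and 0.174 CPM. A gene was called higher or lower when the adjusted p of edgeR's test was under 0.05 and the change at least 1.5-fold. All 12 fibroblast markers were tested, of which 2 were called higher (*Pdgfrb* and *Lum*) and 1 lower (*Postn*). Without WT replicate 2 or 3, 1 was called higher, without *Aff3ir-ORF2-/-* replicate 1, 0 were called lower, and without *Aff3ir-ORF2-/-* replicate 2, 1 was called higher and 3 lower. Their summed level was 30490 to 30590 CPM in WT and 25450 to 32300 CPM in *Aff3ir-ORF2-/-* libraries. A list of 18 macrophage markers summed to 19.9, 23.5 and 21.8 CPM in WT replicates 1 to 3 and to 1278, 1786 and 2218 CPM in *Aff3ir-ORF2-/-* replicates 1 to 3, with *C1qa*, *C1qb* and *Fcgr1* at 0 in every WT library. In bulk RNA, fewer cells of a type and less RNA per cell cannot be told apart. The *Aff3ir-ORF2-/-* libraries also varied more among themselves: chi-square per degree of freedom was 1.38 to 1.71 for pairs of WT libraries and 5.56 to 18.9 for pairs of *Aff3ir-ORF2-/-* libraries, where counting noise alone gives about 1.

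The transcripts of the class I molecule and of its loading machinery were higher in *Aff3ir-ORF2-/-* MEFs. Of the 8 members with enough counts to test, 6 were called higher (*H2-D1*, *B2m*, *H2-K1*, *Tapbp*, *Tap2* and *Psmb8*) and 0 were called lower. *Tap1* and *Psmb10* passed the adjusted p at less than 1.5-fold, and *Psmb9* and *Cd74* were too scarce in both genotypes to test. Over all 13075 tested genes, 14.2% were called higher and 7.27% lower, 21.4% in all. In each of the 8 tested members, every *Aff3ir-ORF2-/-* library lay above every WT library, which held for 33.3% of all tested genes.

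**Figure D1:**
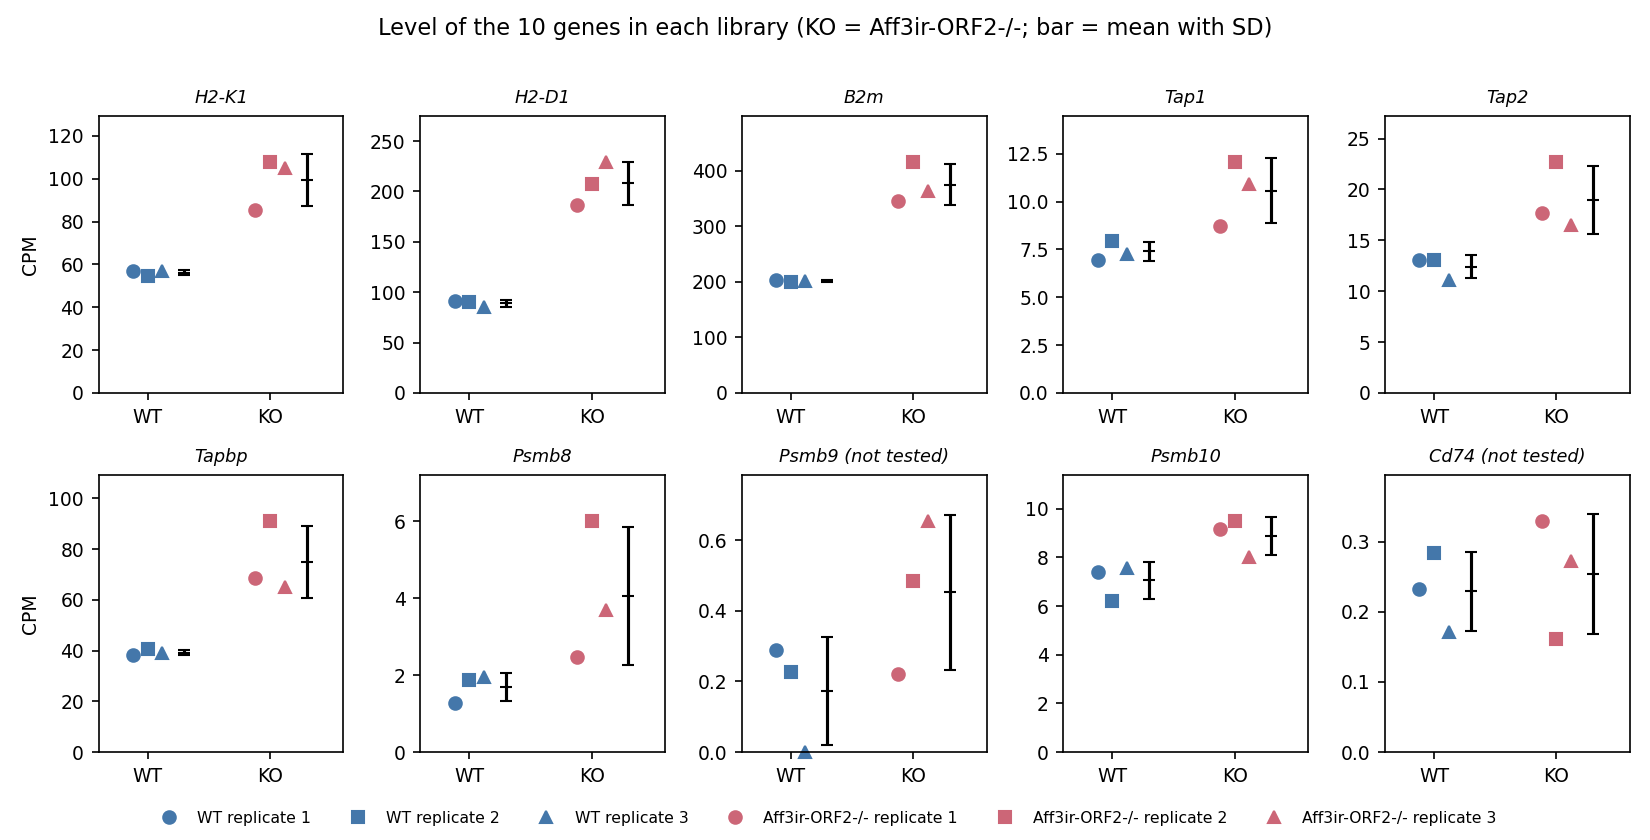
CPM of each of the 10 genes in the 6 libraries, on linear axes that start at 0, with circles, squares and triangles for replicates 1, 2 and 3 and a bar for the mean with SD of the 3 libraries of a genotype. The groups do not overlap for the 8 tested genes, while *Psmb9* and *Cd74* stay under 0.7 CPM in all libraries and overlap.

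All 3 class I chains were called higher, with a median log2 fold change of 0.90. *H2-D1* (gene ID 14964) was at 91.3, 90.2 and 85.3 CPM in WT replicates 1 to 3 and at 187, 208 and 229 CPM in *Aff3ir-ORF2-/-* replicates 1 to 3. The groups were far apart, and its log2 fold change of 1.22 (SE 0.0723, adjusted p = 2.38e-06), or 2.34-fold, was the highest of the class I chains. *H2-K1* (gene ID 14972), the other heavy chain, was at 56.8, 54.8 and 57.1 CPM in WT and at 85.5, 108 and 105 CPM in *Aff3ir-ORF2-/-* MEFs. Replicate 1 was the lowest of the *Aff3ir-ORF2-/-* libraries for both heavy chains, and the log2 fold change of *H2-K1* was 0.82 (SE 0.0837, adjusted p = 5.63e-05). *B2m* (gene ID 12010) was at 203, 200 and 201 CPM in WT and at 346, 416 and 363 CPM in *Aff3ir-ORF2-/-* MEFs. Its WT libraries lay within 3 CPM of each other, and its log2 fold change was 0.90 (SE 0.0649, adjusted p = 6.01e-06). The summed CPM of the 18 macrophage markers was higher in the same genotype, lowest in replicate 1 and highest in replicate 3, as *H2-D1* was, while *B2m* and *H2-K1* were highest in replicate 2. The part of the macrophage transcripts in the class I difference was not tested.

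Both heavy chains rose, and their ratio was compared within each library. The log2 ratio of *H2-K1* to *H2-D1* within a library was -0.68, -0.72 and -0.58 in WT replicates 1 to 3 and -1.13, -0.94 and -1.13 in *Aff3ir-ORF2-/-* replicates 1 to 3, which does not depend on how the libraries are scaled. The ratios did not overlap, but the mean difference of -0.41 did not pass the test (two-sided exact permutation p = 0.1, the smallest that 3 libraries against 3 allow, and 0.167 adjusted over the 5 ratios computed). Heavy chains of class I genes are similar in sequence. In the GENCODE M21 transcripts, 6.9% of the windows of 75 bases of *H2-D1* and 1.33% of those of *H2-K1* also occurred in a transcript of another gene, so that some reads could be assigned to either. The share was 0.99% for *Tapbp* and 0% for the other 7 members.

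The stretches upstream of the transcription start are shown for the class I chains because the 3 genes moved together. They were taken from RefSeq (GRCm38.p6), which had an entry for 8 of the 10 members. *Tap2* and *Cd74* were not looked at. Capitals mark matches, on either strand, to an NF-κB element (GGGA and CC with 4 bases of any kind between them), an IRF element (GAAA repeated after 2 bases of any kind), TGACG (the core of a cyclic AMP response element) and ATTGG (the CCAAT box, read on the other strand). *H2-K1* (chr17:34000353-34000462, minus strand) and *H2-D1* (chr17:35262919-35263028, plus strand) are shown over 110 bases and *B2m* (chr2:122147544-122147663, plus strand) over 120 bases.
H2-K1: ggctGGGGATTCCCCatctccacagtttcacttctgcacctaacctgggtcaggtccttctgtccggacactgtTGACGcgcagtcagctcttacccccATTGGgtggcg
H2-D1: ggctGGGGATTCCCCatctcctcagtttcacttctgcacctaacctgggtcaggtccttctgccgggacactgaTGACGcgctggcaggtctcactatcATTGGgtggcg
B2m: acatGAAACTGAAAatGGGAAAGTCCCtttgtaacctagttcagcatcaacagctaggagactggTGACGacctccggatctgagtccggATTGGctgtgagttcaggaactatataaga
The *H2-K1* and *H2-D1* stretches had the same base at 99 of 110 positions. In the windows of the table, from 250 bases before the start to 50 after it, the NF-κB element was found in 3 members (*H2-K1*, *H2-D1* and *B2m*) and in 20.7% of all 32851 windows, the IRF element in *B2m* alone and in 3.44% of all windows. TGACG was found in 5 members and 20.8% of all windows, ATTGG in 6 members and 37.4%, and the interferon-γ-activated site (TTC and GAA with 3 bases between them) in *Psmb8* alone and 8.3%. The windows of *Psmb9* and *Tap1* overlap, so that the same TGACG and the same ATTGG are counted for both of these members. The same bases can match the NF-κB element on both strands. A match is a description of the letters, not evidence that a factor binds. Only these exact patterns were searched. The lack of a match, as for the IRF element in *H2-K1* and *H2-D1*, does not show that no variant of an element is present.

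Of the genes of peptide transport and loading, *Tapbp* and *Tap2* were called higher. *Tapbp* (gene ID 21356) was at 38.3, 40.5 and 38.9 CPM in WT and at 68.6, 91.1 and 65.1 CPM in *Aff3ir-ORF2-/-* replicates 1 to 3. Its groups were well apart, with replicate 2 the highest, and its log2 fold change was 0.93 (SE 0.127, adjusted p = 6.94e-04). *Tap2* (gene ID 21355) was at 13.1, 13.03 and 11.1 CPM in WT and at 17.7, 22.7 and 16.5 CPM in *Aff3ir-ORF2-/-* MEFs, a log2 fold change of 0.61 (SE 0.129, adjusted p = 0.00318). This lies close to the 1.5-fold threshold: it fell under it without *Aff3ir-ORF2-/-* replicate 2 (0.46) and without WT replicate 3 (0.53). *Tap1* (gene ID 21354), the partner of *Tap2*, was at 6.96, 7.96 and 7.27 CPM in WT and at 8.73, 12.1 and 10.9 CPM in *Aff3ir-ORF2-/-* MEFs. Its log2 fold change of 0.51 (SE 0.133, adjusted p = 0.00843) was just under 1.5-fold, and it was called higher without *Aff3ir-ORF2-/-* replicate 1 (0.63). The log2 ratio of *Tap1* to *Tap2* was -0.90, -0.70 and -0.60 in WT and -1.01, -0.90 and -0.59 in *Aff3ir-ORF2-/-* libraries. These overlapped, with a mean difference of -0.098 (two-sided exact permutation p = 0.7), so that no difference between the chains of the transporter was detected.

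The rest of the loading list was compared in the same fit. Of its 8 genes, *Tapbp* and *Tap2* were called higher, 7 passed the adjusted p in the higher direction and 0 in the lower, and the median log2 fold change was 0.42, beside 0.0056 over all tested genes. The general chaperones of the endoplasmic reticulum moved by less than 1.5-fold. Calreticulin, *Calr*, was at 895.9 to 911.8 CPM in WT and 1232 to 1254 CPM in *Aff3ir-ORF2-/-* MEFs (log2 fold change 0.45, SE 0.042). *Pdia3*, a disulphide isomerase of the loading complex, had a log2 fold change of 0.30 (SE 0.0415), and calnexin, *Canx*, one of 0.22 (SE 0.0453). *Erap1*, which trims peptides in the endoplasmic reticulum, was at 0.39 (SE 0.0739, adjusted p = 0.00144). *Tapbpl*, a relative of tapasin that edits peptides, was at 0.16 (SE 0.113) and did not pass the test (adjusted p = 0.243).

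Non-classical class I genes encode heavy chains that present restricted ligands. Of 15 listed, 14 were found and 10 tested, of which 5 were called higher and 1 lower, with a median log2 fold change of 0.65. Over all tested genes, 14.2% were called higher and 7.27% lower. When every library had to hold at least 10 counts, 7 were tested and 3 called higher, with a median of 0.41. Without *Aff3ir-ORF2-/-* replicate 2, 3 were called higher, since *Mr1* (0.57) and *H2-T23* (0.38) fell under 1.5-fold. *H2-Q4* was at 6.44, 6.83 and 7.78 CPM in WT and at 10.5, 15.5 and 12.97 CPM in *Aff3ir-ORF2-/-* libraries (log2 fold change 0.89, SE 0.149, adjusted p = 7.84e-04). *Mr1*, which presents vitamin metabolites, rose from 7.13 ± 0.824 to 11.6 ± 1.89 CPM (SD, n = 3; log2 fold change 0.71, SE 0.141, adjusted p = 0.00203). *H2-T23*, the mouse Qa-1 molecule, was at 0.59 (SE 0.163, adjusted p = 0.0147), and *H2-Q6* and *H2-Q7* were at 1.70 and 1.54 from at most 10 counts in any WT library. *H2-Q6* and *H2-Q7* passed the filter on low counts only through the *Aff3ir-ORF2-/-* libraries. The call of *H2-T23* was also lost without WT replicate 1 or 2, where its adjusted p was above 0.05. *H2-T22*, with the most counts of this list, moved by 0.36 (SE 0.0719). *Cd1d1*, which presents lipids, went the other way, from 9.69, 9.50 and 10.2 CPM in WT to 3.02, 4.67 and 3.65 CPM in *Aff3ir-ORF2-/-* MEFs (log2 fold change -1.37, SE 0.153, adjusted p = 5.93e-05). *H2-M2* had 0 counts in every WT library and 7, 9 and 15 in those of *Aff3ir-ORF2-/-* MEFs, too few to test. The *H2-Q* genes are near copies of each other, and their counts are uncertain where reads could be shared.

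Of the 3 immunoproteasome subunits, *Psmb8* was called higher, *Psmb10* passed the adjusted p at less than 1.5-fold and *Psmb9* could not be tested. *Psmb8* (gene ID 16913), which replaces *Psmb5*, had 22, 33 and 34 counts in the WT libraries, against 45, 112 and 68 in the *Aff3ir-ORF2-/-* libraries (replicates 1 to 3). The groups did not overlap, but replicate 2 stood well above replicate 1, and the log2 fold change was 1.25 with a wide error (SE 0.341, adjusted p = 0.0128). Without *Aff3ir-ORF2-/-* replicate 2 it was 0.85, and without WT replicate 1 it no longer passed (1.09, adjusted p = 0.0561). *Psmb10* (gene ID 19171), which replaces *Psmb7*, was at 7.42, 6.20 and 7.56 CPM in WT and at 9.17, 9.50 and 8.01 CPM in *Aff3ir-ORF2-/-* MEFs. The gap between the groups was small, and the log2 fold change was 0.33 (SE 0.121, adjusted p = 0.0393, or 0.0515 without the filter on low counts). *Psmb9* (gene ID 16912), which replaces *Psmb6*, had 5, 4 and 0 counts in the WT libraries, against 4, 9 and 12 in the *Aff3ir-ORF2-/-* libraries, so that its groups overlapped and a difference was not detectable at this depth. The activator PA28, which opens the proteasome core, is encoded by *Psme1* and *Psme2*. *Psme2* was at 30.4 to 30.8 CPM in WT and 37.4 to 43.2 CPM in *Aff3ir-ORF2-/-* MEFs (log2 fold change 0.37, SE 0.0664, adjusted p = 0.00102), and *Psme1* had a log2 fold change of 0.21 (SE 0.0644, adjusted p = 0.0178). Of the 5 genes of this list, 4 were tested, 1 was called higher and all 4 passed the adjusted p, which dropped to 2 without WT replicate 1, 2 or 3 in turn.

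Each immunoproteasome subunit was then set against the constitutive subunit it replaces, within a library. *Psmb5*, *Psmb6* and *Psmb7* did not pass the test, with log2 fold changes of -0.11 (SE 0.0686, adjusted p = 0.214), -0.024 (SE 0.0448, adjusted p = 0.67) and -0.068 (SE 0.0517, adjusted p = 0.285). The log2 fold change of *Psmb6* turned positive when libraries were scaled by the upper quartile or by totals. The log2 ratio of *Psmb8* to *Psmb5* was -6.52, -5.95 and -5.76 in WT and -5.49, -4.05 and -4.95 in *Aff3ir-ORF2-/-* libraries, a mean difference of 1.24 with no overlap (two-sided exact permutation p = 0.1, 0.167 adjusted). The ratio of *Psmb10* to *Psmb7* was -4.27, -4.64 and -4.31 in WT and -3.98, -3.83 and -4.22 in *Aff3ir-ORF2-/-* libraries, a mean difference of 0.40 with no overlap (two-sided exact permutation p = 0.1, 0.167 adjusted). For *Psmb9* against *Psmb6* the ratios overlapped, and the mean difference of 1.13 had a two-sided exact permutation p = 0.2.

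**Figure D2:**
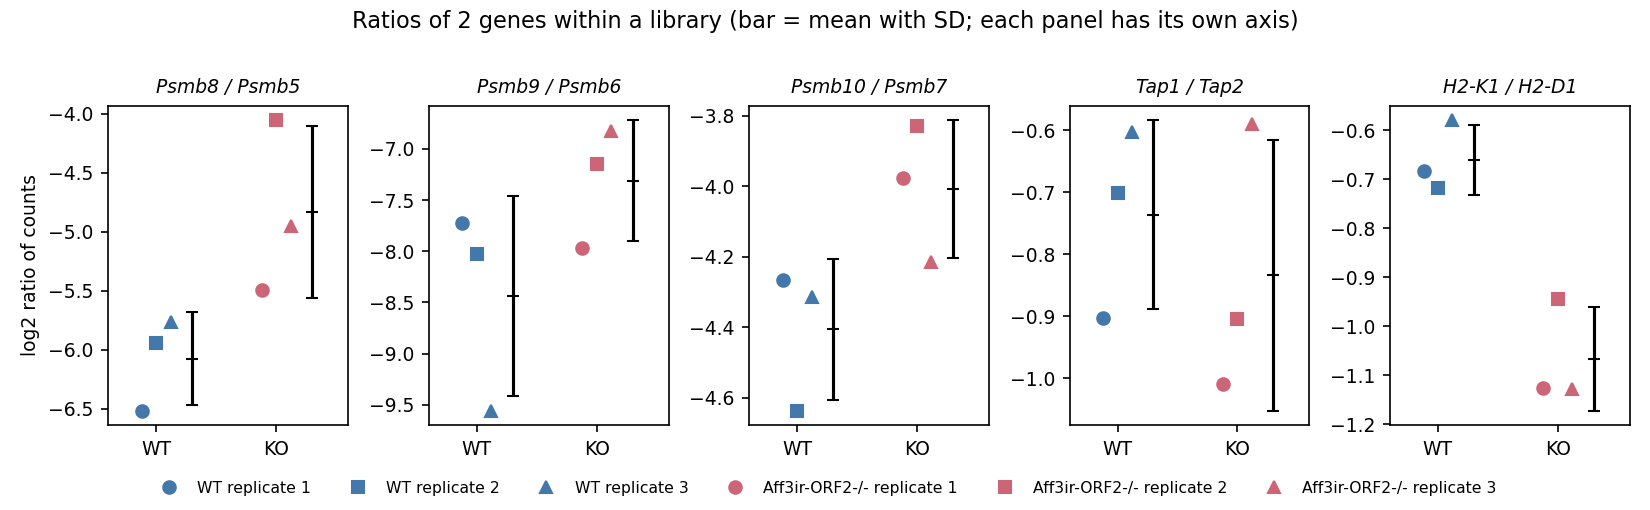
Log2 ratio of the counts of 2 genes (prior count of 2) in each library, with circles, squares and triangles for replicates 1, 2 and 3 and a bar for the mean with SD, each panel on its own axis. *Psmb8* to *Psmb5* and *Psmb10* to *Psmb7* are higher in all 3 *Aff3ir-ORF2-/-* libraries and *H2-K1* to *H2-D1* is lower in all 3, while the other panels overlap.

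The remaining proteasome genes were not called in either direction. Of 16 genes of the 20S core and its assembly, 15 had a negative log2 fold change, with a median of -0.19, and 13 were lower and 1 was higher past the adjusted p, all by less than 1.5-fold, where 27.5% of all tested genes were lower and 29.3% higher past the adjusted p. The number lower was 8, 7 and 8 without WT replicates 1, 2 and 3. Of 20 genes of the 19S regulator and other activators, 19 were negative, with a median of -0.15, and 13 were lower and 1 higher past the adjusted p, or 8 lower without WT replicate 2. The number of negative genes in both lists was the same under every other scaling tried. *Psma5*, a core subunit, went from 127.5 to 129.9 CPM in WT to 99.99 to 107.1 CPM in *Aff3ir-ORF2-/-* MEFs (log2 fold change -0.31, SE 0.0442, adjusted p = 2.99e-04). *Pomp*, which assembles new proteasome cores, was at 0.16 (SE 0.0619, adjusted p = 0.0479), and *Psmd8*, a subunit of the regulator, was at 0.35 (SE 0.0457, adjusted p = 1.46e-04).

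**Figure D3:**
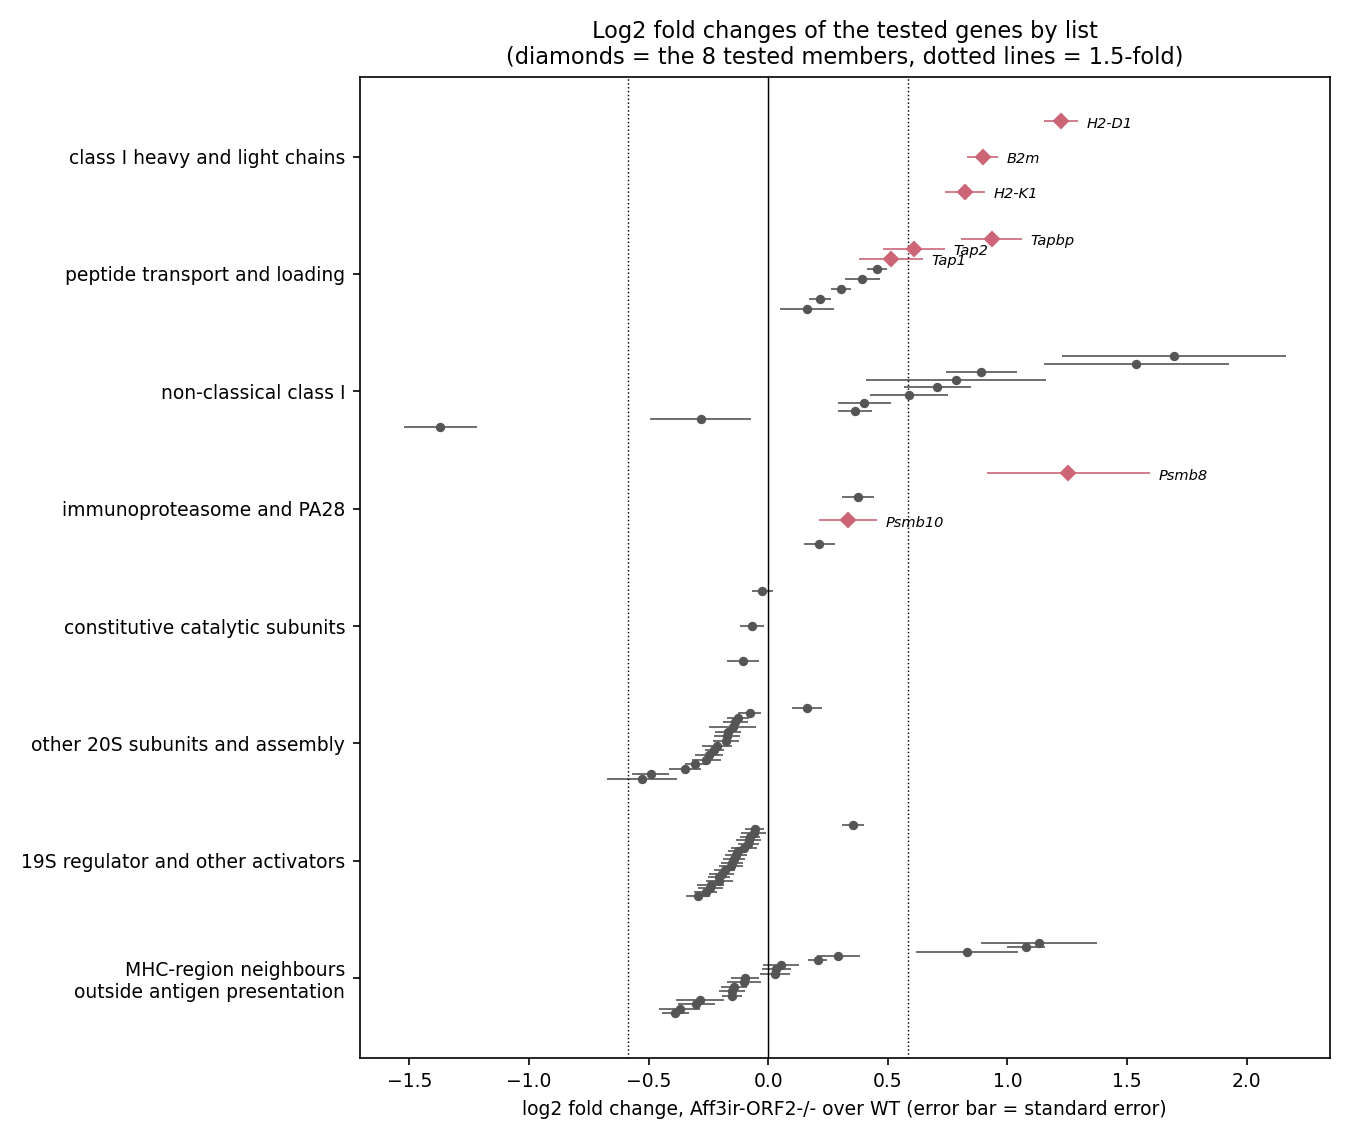
Log2 fold change (*Aff3ir-ORF2-/-* over WT) with its standard error for each tested gene of 8 lists, with diamonds for the 8 tested members, circles for the other genes and dotted lines at 1.5-fold in each direction. Class I and loading genes lie to the right of 0, while 15 of 16 core and assembly genes and 19 of 20 regulator genes lie to the left of it within the 1.5-fold lines.

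Levels of different genes were compared per length, as CPM per kilobase of the GENCODE M21 transcript with the longest coding sequence. In WT MEFs *B2m* was at 234 ± 1.42 CPM per kilobase (SD, n = 3), followed by *H2-D1* at 42.3 ± 1.51 and *H2-K1* at 30.0 ± 0.648. *Tapbp* (13.5 ± 0.394), *Psmb10* (5.39 ± 0.57), *Tap2* (3.61 ± 0.329), *Tap1* (1.89 ± 0.131) and *Psmb8* (0.891 ± 0.193) came next, with *Cd74* and *Psmb9* under 0.21 in every library. The order of the means was the same in *Aff3ir-ORF2-/-* MEFs, from *B2m* at 436 ± 42.1 to *Psmb9* at 0.157 ± 0.0759, but there the libraries of *Psmb10* and *Tap2*, of *Tap1* and *Psmb8*, and of *Cd74* and *Psmb9* overlapped. The constitutive subunits were far more abundant than their replacements. *Psmb5* was at 134 ± 8.76 CPM per kilobase in WT and 124 ± 9.93 in *Aff3ir-ORF2-/-* MEFs (SD, n = 3), where *Psmb8* reached 2.13 ± 0.942. *Psmb6* was at 88.8 ± 2.43 and 87.4 ± 1.95, and *Psmb7* at 53.1 ± 2.12 and 50.7 ± 2.56.

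*Cd74*, *H2-Eb1* and *H2-DMb2* stayed near the detection limit in both genotypes, while other genes of the class II list had more counts. *Cd74* (gene ID 16149) had 4, 5 and 3 counts in the WT libraries, against 6, 3 and 5 in the *Aff3ir-ORF2-/-* libraries (replicates 1 to 3). Its counts overlapped, and without the filter on low counts its log2 fold change was 0.13 (SE 0.582, adjusted p = 0.882), so that a change in either direction was not detectable at this depth. *H2-Eb1*, a class II β chain, had 2, 4 and 3 counts in the WT libraries, against 4, 6 and 5 in the *Aff3ir-ORF2-/-* libraries, and *H2-DMb2* was at 0 to 2 counts in all 6. *H2-Ab1*, the other β chain found, had 5, 5 and 3 counts in the WT libraries, against 19, 25 and 17 in the *Aff3ir-ORF2-/-* libraries. Here the groups did not overlap, and the log2 fold change was 2.12 (SE 0.371, adjusted p = 9.37e-04), from a level of 0.249 ± 0.0667 to one of 1.10 ± 0.214 CPM (SD, n = 3). *H2-DMa* and *H2-DMb1* encode the chaperone that exchanges class II peptides. *H2-DMa* did not pass the test (log2 fold change 0.30, SE 0.138, adjusted p = 0.0901), and *H2-DMb1* was at 34 to 38 counts in WT and 50 to 63 in *Aff3ir-ORF2-/-* libraries (0.62, SE 0.18, adjusted p = 0.0153), a call lost without WT replicate 2, without *Aff3ir-ORF2-/-* replicate 1 and without *Aff3ir-ORF2-/-* replicate 2. Of the 10 class II genes listed, 6 were found and 3 tested, of which 2 were called higher. *H2-Ab1* passed the filter on low counts only through the *Aff3ir-ORF2-/-* libraries.

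All 18 macrophage markers were called higher, and *Lyz2*, a lysozyme, reached 14471, 20237 and 25195 counts in the *Aff3ir-ORF2-/-* libraries, where *Cd74* had at most 6 counts. Only 6 of the 18 were tested when every library had to hold at least 10 counts. The rest passed the filter on low counts only through the *Aff3ir-ORF2-/-* libraries. Without *Aff3ir-ORF2-/-* replicate 2, 16 of the 18 passed the adjusted p. Among all tested genes, 14.2% were called higher. *Ciita*, the transactivator of class II genes, had 3, 1 and 2 counts in the WT libraries, against 5, 10 and 5 in the *Aff3ir-ORF2-/-* libraries, too few to test. Proteases and a reductase that prepare material for class II differed among themselves. Of 6 listed, 4 were called higher. Cathepsin S, *Ctss*, rose from 14, 20 and 12 counts to 2362, 3151 and 3462 counts (log2 fold change 7.52, SE 0.247, adjusted p = 2.74e-06). *Lgmn* (log2 fold change 1.58), *Ctsd* (1.44) and *Ctsb* (1.02) were also higher, with the lowest *Aff3ir-ORF2-/-* value in replicate 1, as for the macrophage sum. *Ctsl* was at 0.28 (SE 0.0488), and the reductase *Ifi30*, at 868 to 916 counts in WT and 869 to 993 in *Aff3ir-ORF2-/-* libraries, did not pass the test (-0.024, SE 0.064, adjusted p = 0.76).

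**Figure D4:**
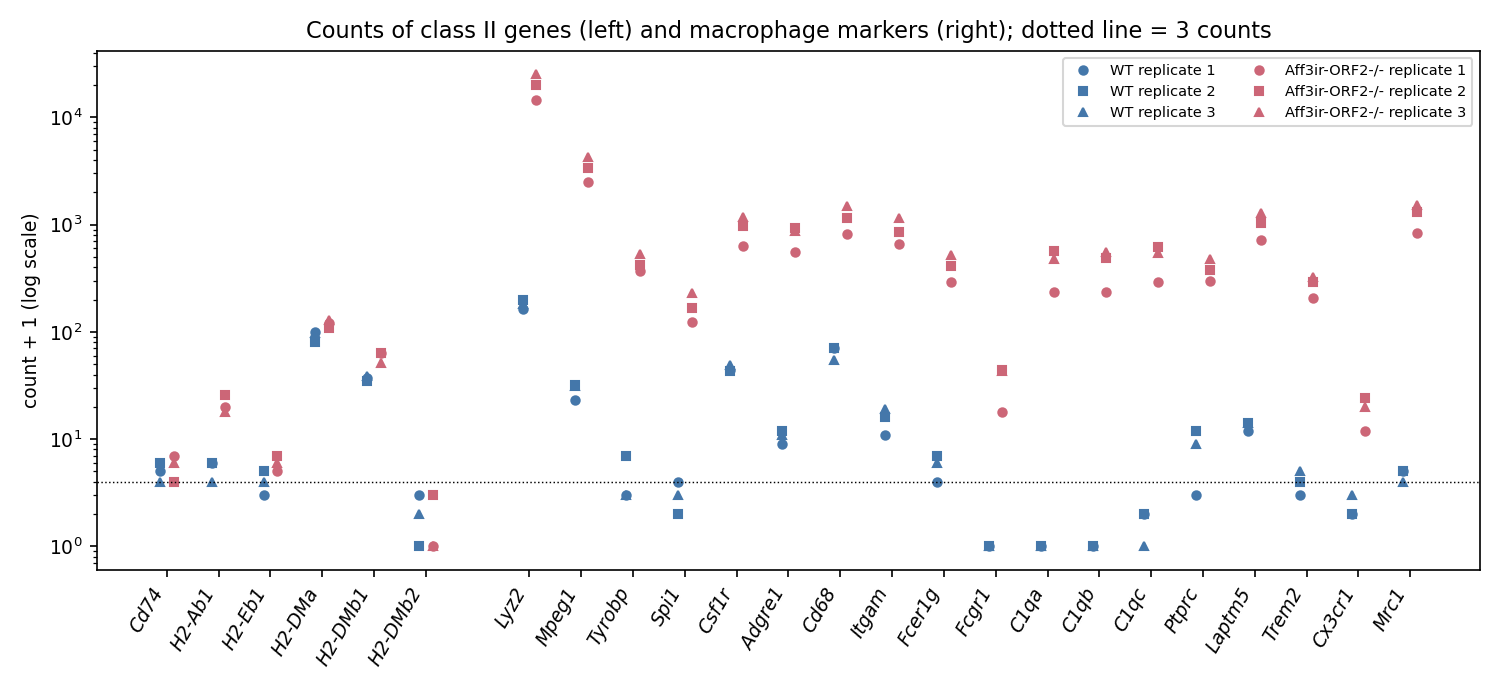
Count plus 1 on a log axis for the 6 class II genes found (left) and the 18 macrophage markers (right), in WT (blue) and *Aff3ir-ORF2-/-* (red) libraries, with circles, squares and triangles for replicates 1, 2 and 3 and a dotted line at 3 counts. The markers rise in every *Aff3ir-ORF2-/-* library, while *Cd74*, *H2-Eb1* and *H2-DMb2* stay at 6 counts or fewer in both genotypes.

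Regulators of MHC genes were looked at next. Of 14 listed transactivators, 12 were tested, of which 5 were called higher and 0 lower, with a median log2 fold change of 0.50. Among all tested genes, 14.2% were called higher and 7.27% lower. *Nlrc5*, the transactivator of class I genes, had 105, 92 and 119 counts in the WT libraries, against 139, 200 and 169 in the *Aff3ir-ORF2-/-* libraries (log2 fold change 0.61, SE 0.153, adjusted p = 0.00739). Its groups did not overlap, but its change was close to the threshold and fell under 1.5-fold without WT replicate 2 (0.51) and without *Aff3ir-ORF2-/-* replicate 2 (0.47). *Rfx5* and *Rfxank*, subunits of the complex that binds the X box of MHC promoters, were at 0.78 (SE 0.094, adjusted p = 9.91e-05) and 0.68 (SE 0.106, adjusted p = 4.55e-04). Their partner *Rfxap* was at 0.51 (SE 0.135), under 1.5-fold. *Irf1*, which interferon-γ induces, had 98, 117 and 136 counts in the WT libraries, against 232, 297 and 261 in the *Aff3ir-ORF2-/-* libraries (log2 fold change 1.09, SE 0.133, adjusted p = 1.01e-04). *Irf8*, a factor of myeloid cells and B cells, had 2, 4 and 0 counts in the WT libraries, against 82, 125 and 153 in the *Aff3ir-ORF2-/-* libraries, the largest change of this list (log2 fold change 5.74, SE 0.492, adjusted p = 2.34e-05). Like the macrophage sum, it was lowest in replicate 1 and highest in replicate 3. *Irf8* passed the filter on low counts only through the *Aff3ir-ORF2-/-* libraries. By RT-PCR of WT and *Aff3ir-ORF2-/-* MEFs, the paper reports *Irf8* expression as unaffected. The reason for this difference was not tested.

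Of the genes that carry the interferon-γ signal, 7 of 8 were found, and 2 were called higher and 1 lower, with a median of 0.026. *Ifngr2*, a chain of the receptor, rose from 51.8 ± 1.36 to 91.9 ± 2.68 CPM (SD, n = 3; log2 fold change 0.83, SE 0.0473, adjusted p = 1.66e-06), while *Ifngr1*, the other chain, was at 0.026 (SE 0.06, adjusted p = 0.725). *Jak2*, the kinase bound to *Ifngr2*, fell from 86.9 ± 1.21 to 56.7 ± 8.11 CPM (SD, n = 3; log2 fold change -0.62, SE 0.0893, adjusted p = 4.79e-04), a call lost without *Aff3ir-ORF2-/-* replicate 3 (-0.54), where it was under 1.5-fold. Of 14 GTPases that interferon-γ induces, 10 were tested and 6 called higher, with a median of 1.04. Among all tested genes, 14.2% were called higher and 7.27% lower. *Tgtp1* and *Iigp1*, both among the 6, passed the filter on low counts only through the *Aff3ir-ORF2-/-* libraries. The call of *Gbp6* was lost without WT replicate 1, 2 or 3 and without *Aff3ir-ORF2-/-* replicate 2. That of *Iigp1* was lost without WT replicate 2 or 3 and without *Aff3ir-ORF2-/-* replicate 3. The median fell to 0.70 without *Aff3ir-ORF2-/-* replicate 2. It was 0.59 over the 8 genes tested when every library had to hold at least 10 counts. *Irgm1* was at 17.6, 16.7 and 18.3 CPM in WT and at 38.9, 47.6 and 37.2 CPM in *Aff3ir-ORF2-/-* libraries (log2 fold change 1.23, SE 0.0973, adjusted p = 1.01e-05), and *Gbp2* was at 0.96 (SE 0.215, adjusted p = 0.00644). *Gbp7*, at 58 to 59 counts in WT and 48 to 80 in *Aff3ir-ORF2-/-* libraries, did not pass the test (0.031, SE 0.195, adjusted p = 0.901).

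Most of the members lie together on chromosome 17, in the MHC region. In the RefSeq order, *Psmb9*, *Tap1*, *Psmb8* and *Tap2* follow each other, next to *H2-DMb1*, and *H2-K1*, *H2-D1* and *Tapbp* lie on the same chromosome, while *B2m*, *Psmb10* and *Cd74* are on chromosomes 2, 8 and 18. Neighbours of the region that have no part in antigen presentation were read from the same fit. Of 18 listed, 17 were found and tested, 3 were called higher and 0 lower, with a median log2 fold change of -0.096. The shares over all tested genes were 14.2% higher and 7.27% lower. *B3galt4* (1.13, SE 0.242) and *Col11a2* (0.83, SE 0.212) were among the genes called. *Rps18*, *Brd2* and *Slc39a7*, which had the most counts, were at -0.15, -0.14 and 0.21.

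*Psmb9* and *Tap1* start on opposite strands with 225 bases between them, and this stretch is printed because the genes that share it were measured at very different counts (0 to 12 for *Psmb9* and 120 to 225 for *Tap1*). It is chr17:34187331-34187555 of GRCm38.p6, written on the plus strand, which *Tap1* is read from. Capitals mark TGACG and ATTGG, the latter here on the opposite strand.
Psmb9-Tap1: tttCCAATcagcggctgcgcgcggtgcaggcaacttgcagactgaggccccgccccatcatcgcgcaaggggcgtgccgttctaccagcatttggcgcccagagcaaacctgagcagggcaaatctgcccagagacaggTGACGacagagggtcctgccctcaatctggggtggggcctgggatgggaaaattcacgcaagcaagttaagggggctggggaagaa

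The genes whose log2 CPM over the 6 libraries was most like that of a member were sought among the 11565 tested genes that averaged at least 1 on that scale. For *H2-K1* they were *Pfkfb3*, *Dab2* and *Lyst* (Pearson's r from 0.998 to 0.999), and for *Psmb8* *Rbpj*, *Fbxo44* and *Wdr47* (0.990 to 0.993). For *Cd74*, at 3 to 6 counts, they were *Ube2m*, *Slirp* and *Asb6* (0.974 to 0.980), an order that rests on differences of single counts. These values describe 6 libraries that share a 2-group design and are given without a test.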

How the data were processed

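The authors had paired-end DNBSEQ reads of 6 MEF libraries filtered with SOAPnuke and deposited one estimated count per gene and library, not normalized. The aligner, counting tool and strand setting are not given in the sources used here, and the submitters' processing notes list mm8 as the build, so only promoter stretches, from RefSeq (GRCm38.p6), carry coordinates. The values, 10.6% to 11.3% of them not whole, were rounded. Library titles gave the genotype. Of the gene IDs, 17043 of 17092 matched RefSeq.

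Genes passing filterByExpr (minimum count 10, minimum total count 15) were fitted together with edgeR 4.0.16 (TMM, robust quasi-likelihood, no covariates, with robust estimation settled after the files were seen), and p-values were Benjamini-Hochberg adjusted over 13075 genes. SE is the log2 fold change over the square root of F. Ratios used log2 CPM with a prior count of 2. Functions were tested on simulated data. Alternatives included limma 3.58.1 and DESeq2 1.42.0, run in R 4.3.3, and figures used matplotlib 3.10.9 in Python 3.11.15.

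The members and the 21 lists were chosen with earlier results of these data known. Named genes are the members, whole lists of loading, proteasome catalytic and class II genes, up to 6 genes by adjusted p and 4 by level of other lists, 3 genes most like *H2-K1*, *Psmb8* and *Cd74*, and, chosen after their values were seen, *Psma5*, *Pomp*, *Rfxap*, *Ciita*, *Cd40*, *H2-M2* and scarce cell type markers. The targeted transcript, *Aff3ir*, was not analysed here and gave no check of the genotypes. The floor of 3 counts covers counting error only, while SE and SD include the spread between these libraries. Some genes of the lists are counted but not reported here by name.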

Additional observations from a re-analysis of the deposited data

How the results depend on the processing

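Over 18 alternatives, *H2-D1* was called higher in all (log2 fold change 1.15 to 1.29), and *H2-K1* (0.76 to 0.92), *B2m* (0.81 to 0.95) and *Tapbp* (0.76 to 1.02) in all but the 2-fold threshold. No tested member changed sign. A test against 1.5-fold (glmTreat) lost *Tap2* (adjusted p = 0.92) and *Psmb8* (adjusted p = 0.126). The number of members called higher was 2 with a 2-fold threshold and 5 to 7 when one library was left out, and 0 were called lower in each. Calls over all genes numbered 1096 higher and 317 lower with a 2-fold threshold, 3831 and 3591 with no fold threshold, 1074 and 410 with glmTreat, and 1780 to 1917 and 898 to 1030 when one library was left out. Calls over the pathway lists went to 21, 53 and 19 higher and 1, 36 and 1 lower under these 3 thresholds, and to 1 lower with upper quartile scaling. They were 30 to 35 higher and 1 to 3 lower when one library was left out, beside 35 and 2 as reported. The first 3 settings change only the fold that a call must pass or is tested against, and the cause of the other shifts was not tested. Among single genes and lists, 2773 other values kept their call or, for counts of a list, stayed within 1.5-fold of the count reported. A further 76 counts moved by more, 56 values gained and 57 lost a call.

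With one library left out, the mean difference of the log2 ratio was 0.85 to 1.57 for *Psmb8* to *Psmb5*, 0.57 to 1.48 for *Psmb9* to *Psmb6*, 0.28 to 0.50 for *Psmb10* to *Psmb7*, -0.22 to -0.011 for *Tap1* to *Tap2* and -0.47 to -0.37 for *H2-K1* to *H2-D1*. The replicate numbers did not pair the libraries: deviations from the genotype means correlated at 0.039, 0.042 and 0.015 for replicates 1, 2 and 3, although each library correlated best with its own number, a hint from the data and not from the design. With the replicate number as a block, 6 members were called higher, and 1854 genes were higher and 954 lower, while *H2-T23* fell under 1.5-fold. The fit without robust dispersion, added after seeing the data, called 1865 and 957. *Psmb9* and *Cd74* had 12 counts or fewer per library, which limits what could be detected for them.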

Other observations

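Ligands that act together with presented peptides on T cells were read from the same fit. Of 7 listed, 6 were tested and 3 were called higher and 0 lower, or 1 lower without *Aff3ir-ORF2-/-* replicate 2. Among all tested genes, 14.2% were called higher and 7.27% lower. *Cd274*, which encodes the checkpoint ligand PD-L1, had 37, 36 and 34 counts in the WT libraries, against 72, 76 and 83 in the *Aff3ir-ORF2-/-* libraries (log2 fold change 1.03, SE 0.162, adjusted p = 4.87e-04). *Cd86*, a co-stimulatory ligand of myeloid cells, had 0, 0 and 1 counts in the WT libraries, against 35, 48 and 61 in the *Aff3ir-ORF2-/-* libraries, and *Cd80* was the third gene called. *Cd86* passed the filter on low counts only through the *Aff3ir-ORF2-/-* libraries. *Cd276*, the most abundant of the list, and *Cd40* did not pass the test (log2 fold changes -0.083, SE 0.0677, and -0.25, SE 0.358).

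Markers of the other cells that present antigen through class II were scarce. Of 9 dendritic cell markers, 6 were found and 1 was tested (*Zbtb46*, log2 fold change 0.59, SE 0.174, adjusted p = 0.0154, a call lost without *Aff3ir-ORF2-/-* replicate 3), and 2 were called higher without WT replicate 1 or 3. *Flt3*, *Clec9a* and *Clec10a* had no more than 3 counts in any library, and *Itgax* had 0, 0 and 1 counts in the WT libraries, against 15, 10 and 16 in the *Aff3ir-ORF2-/-* libraries. Of 6 B cell markers, 3 were found. *Cr2* was lower, with 55, 49 and 57 counts in the WT libraries, against 17, 5 and 8 in the *Aff3ir-ORF2-/-* libraries (log2 fold change -2.49, SE 0.336, adjusted p = 1.94e-04), and *Cd79a* and *Pax5* had no more than 3 counts in any library. Of 8 T and NK cell markers, 4 were found and 0 could be tested. Of 8 endothelial markers, 6 were found and 4 tested, of which 2 were called higher (*Kdr* and *Erg*) and 1 lower (*Cdh5*, a call lost without WT replicate 2 or 3). *Erg* passed the filter on low counts only through the *Aff3ir-ORF2-/-* libraries, and *Cdh5* and *Cr2* only through the WT libraries. Of 7 epithelial markers, 7 were found and 1 tested, with 0 called, but 1 was called higher without WT replicate 1, 2 or 3 or *Aff3ir-ORF2-/-* replicate 2, and 1 lower without WT replicate 1.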
